A study of Mus musculus with 69 samples.

Results

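The MYC and MXD network is a small family of basic helix-loop-helix leucine zipper transcription factors, and its transcripts were followed here through the response of mouse bone marrow-derived macrophages (BMDMs) to interleukin-4 (IL-4). The 9 members were taken by gene symbol from the 24537 genes of the expression tables: Myc, Mycl, Max, Mxd1, Mxi1, Mxd3, Mxd4, Mnt and Mga. In this family MAX is the shared partner. MYC and MYCL pair with MAX to activate genes of growth, ribosome making and metabolism through the E-box CACGTG, while MXD1, MXI1, MXD3, MXD4, MNT and MGA pair with MAX at the same element and repress, and MYC transcripts and protein are known for their short life and quick induction by growth signals. In macrophages, MYC has been linked to proliferation in response to M-CSF and to alternative activation by IL-4.

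RNA was sequenced from BMDMs of female mice aged 8 to 12 weeks, grown from bone marrow for 7 days with M-CSF and then left untreated (basal) or given 20 ng/ml IL-4. One experiment compared the inbred strains C57BL/6J (C57), BALB, NOD, PWK and SPRET at basal and after 24 h of IL-4 (29 libraries). A time course compared C57 and SPRET at basal and after 1, 6 and 24 h (16 libraries). A knockout experiment compared Egr2 fl/fl controls with LyzM-Cre Egr2 fl/fl mice at the same times (16 libraries), in which Cre under the lysozyme M promoter deletes Egr2, a transcription factor gene induced by IL-4, in myeloid cells, and both of its groups carry the floxed allele. Allele-specific values came from BMDMs of F1 offspring of C57 with SPRET and of C57 with NOD (8 libraries in all, basal and 24 h). Groups held 2 or 3 libraries.

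The deposited values were TPM, which scale reads by transcript length and by the total of a library. Differences are given below as log2 differences of TPM + 1 with the standard error of the fit (SE). A gene passed at an adjusted p under 0.05 from limma across all genes of a table that reached 1 TPM in at least 2 libraries (11907, 12088 and 12079 genes in the strain, time course and knockout tables). Of the 9 members, 8 were tested in each table. Mycl never reached 1 TPM: its highest value was 0.657 TPM in the strains, 0.305 TPM in the time course and 0.254 TPM in the knockout table.

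On mm10, Myc lies at chr15:61985341-61990361 on the plus strand and Max at chr12:76937269-76962248 on the minus strand. Mxd1 lies at chr6:86647045-86669159 (minus), Mxi1 at chr19:53310506-53375810 (plus), Mxd3 at chr13:55325168-55329730 (minus) and Mxd4 at chr5:34176580-34187710 (minus). Mnt lies at chr11:74830924-74845725 (plus), Mga at chr2:119897228-119969581 (plus) and Mycl at chr4:122995931-123002480 (plus). The values cover whole genes as listed in the tables, exons counted.

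The 250 bases before the start site were read from RefSeq (GRCm38.p6) for 8 of the members, in 10 windows; Myc had no entry. The palindromic E-box CACGTG, the element bound by MAX dimers, was found in the windows of Mxd4 and Mnt, 2 of the 8 members, and in 6.02% of all 32851 windows of that length. Both are shown, each 5′ to 3′ on the strand of its gene, with the E-box in capitals. The window of Mxd1 follows, because Mxd1 fell together with Mnt after 1 h of IL-4 and showed the largest difference between the Egr2 genotypes among the members. The fourth is the second of 3 windows of Mxi1, where capitals mark a STAT6-type palindrome, TTC and GAA with 4 bases between, 215 bases before the start.
Mnt, chr11:74830674-74830923, plus strand: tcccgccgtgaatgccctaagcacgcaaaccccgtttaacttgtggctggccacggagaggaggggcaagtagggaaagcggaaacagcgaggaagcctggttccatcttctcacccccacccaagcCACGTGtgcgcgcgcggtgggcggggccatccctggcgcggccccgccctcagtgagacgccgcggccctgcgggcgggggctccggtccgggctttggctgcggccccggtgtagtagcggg
Mxd4, chr5:34187711-34187960, minus strand: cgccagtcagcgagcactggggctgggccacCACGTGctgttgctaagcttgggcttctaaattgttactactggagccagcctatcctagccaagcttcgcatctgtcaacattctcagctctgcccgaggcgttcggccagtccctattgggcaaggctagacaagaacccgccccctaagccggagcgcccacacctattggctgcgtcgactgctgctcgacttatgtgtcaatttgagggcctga
Mxd1, chr6:86669160-86669409, minus strand: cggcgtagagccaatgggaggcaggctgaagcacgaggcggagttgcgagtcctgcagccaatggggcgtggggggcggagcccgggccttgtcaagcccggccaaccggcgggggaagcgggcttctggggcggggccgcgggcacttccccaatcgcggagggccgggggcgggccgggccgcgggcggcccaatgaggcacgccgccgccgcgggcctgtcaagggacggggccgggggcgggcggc
Mxi1, chr19:53329163-53329412, plus strand: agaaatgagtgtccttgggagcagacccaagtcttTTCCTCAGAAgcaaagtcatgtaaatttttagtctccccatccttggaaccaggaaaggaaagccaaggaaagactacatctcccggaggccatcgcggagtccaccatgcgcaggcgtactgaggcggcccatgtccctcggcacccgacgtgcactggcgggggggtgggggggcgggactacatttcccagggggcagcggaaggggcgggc
The E-box began 123 bases before the start in Mnt and 219 bases before it in Mxd4. The STAT6-type palindrome was in a window of 1 of the 8 members and in 5.85% of all windows. Of the EGR-type sequences, searched on both strands like the others, GCGTGGGCG and GCGGGGGCG were in none of the members' windows, and in 0.536% and 2.57% of all windows. These are matches of letters in a short window and not binding data.

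Libraries held between 4.69 and 32.9 mapped tags in units of 1000000. All 8 macrophage markers were detected in every group of the strain, time course and knockout tables. Egr2 checked the labels of the knockout: it stood between 21.3 and 100.7 TPM in the Egr2 fl/fl libraries and between 0.854 and 7.05 TPM in the LyzM-Cre Egr2 fl/fl libraries. The summed level of 6 neutrophil and granulocyte precursor markers, nearly all of it S100a8 and S100a9, moved with treatment in part of the groups: it went from 106–131 TPM at basal to 16.6–24.3 TPM at 24 h in C57, from 53–60 to 18–19.8 in BALB, from 40.8–52.4 to 15–18.9 in NOD and from 344–404 to 249–274 in SPRET, and was 545–550 and 543–596 TPM in PWK. Ly6g, the defining neutrophil marker of that list, did not exceed 0.276 TPM in the strains. S100a9 did not exceed 0.747 TPM in SPRET or 0.343 TPM in the time course, so the sum there was mostly S100a8. In PWK S100a8 went from 341–351 to 296–315 TPM and S100a9 from 187–190 to 239–274 TPM. The sum is a transcript level and not a count of neutrophils. The 5 fibroblast markers summed to 202–210 TPM at basal and 105–112 TPM at 24 h in PWK, nearly all of it Dcn (201–208 and 104–110 TPM), with the collagen genes of the list near 0. In bulk RNA, fewer cells of a type and less RNA per cell cannot be told apart.

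IL-4 for 24 h moved Myc, the activator of the network, in opposite directions in different strains. In C57, Myc was 1.95, 1.47 and 2.24 TPM at basal and 4.69, 4.24 and 4.82 TPM after 24 h. In SPRET it was 6.93, 6.75 and 5.69 TPM at basal and 13.1, 13.6 and 13.5 TPM after IL-4. In NOD it was 19.2, 19.5 and 22.0 TPM at basal and 11.5, 10.5 and 11.3 TPM after IL-4. The basal and treated libraries did not overlap in these 3 strains, and NOD was the strain in which they were higher at basal. BALB was at 3.54, 3.49 and 3.29 TPM and then 4.08, 3.79 and 4.51 TPM, and PWK at 3.49 and 3.57 TPM and then 3.51, 4.95 and 2.80 TPM. Myc rose by 0.96 ± 0.11 (SE) on the log2 scale in C57 (adjusted p = 2.1e-07) and by 0.95 ± 0.11 in SPRET (adjusted p = 2e-07), and fell by 0.81 ± 0.11 in NOD (adjusted p = 7.1e-06). The differences of 0.21 ± 0.11 in BALB (adjusted p = 0.17) and 0.05 ± 0.13 in PWK (adjusted p = 0.85) did not pass. Of all genes tested, 15.1% were higher in at least 1 strain and lower in at least 1 other.

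**Figure D1:**
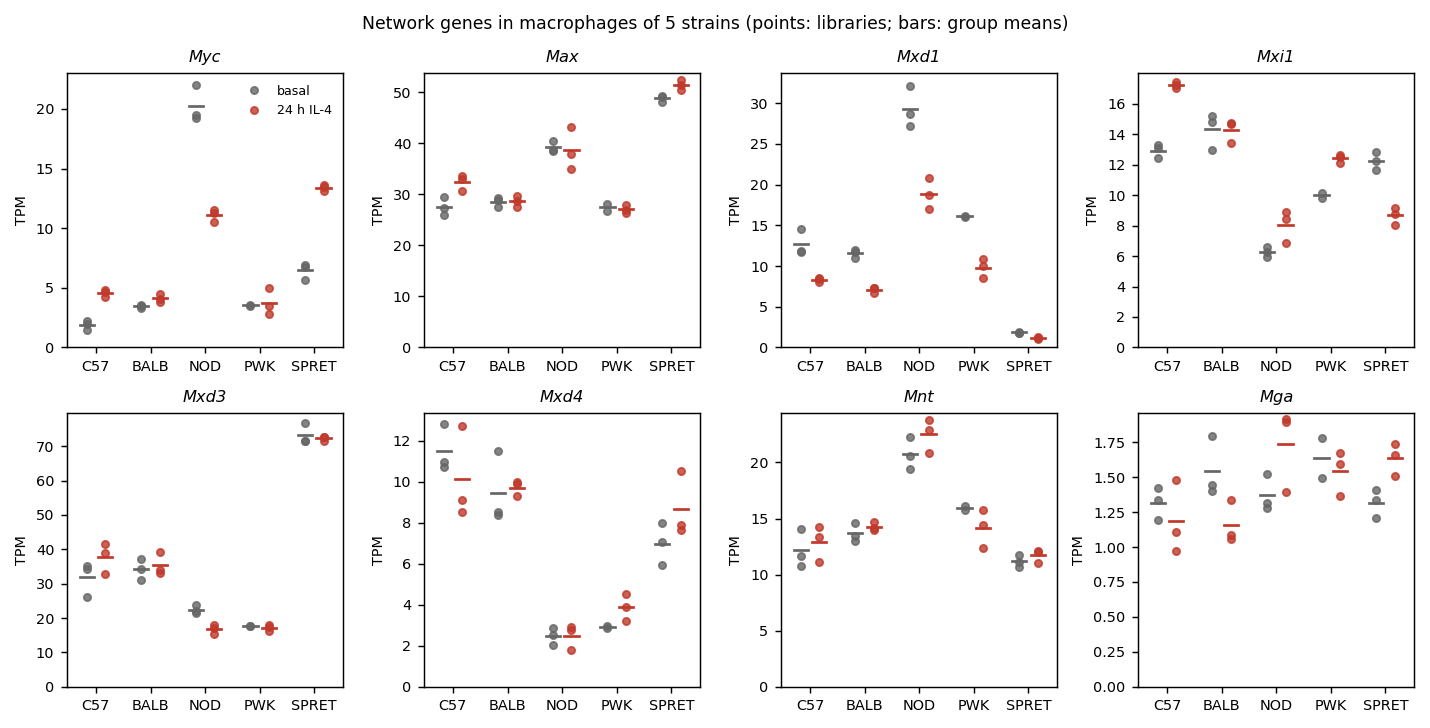
TPM (vertical axes, linear from 0) of the 8 tested members in each strain, with grey points for basal libraries, red points for libraries after 24 h of IL-4 and bars at the group means. Myc at basal is highest in NOD and goes down there after IL-4, while Mxd1 goes down in each strain and is lowest in SPRET, at 1.09 to 1.91 TPM.

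Max, the common partner, moved less than Myc after 24 h of IL-4 in C57, NOD and SPRET. It stood at 25.9 to 29.6 TPM at basal and 30.7 to 33.5 TPM after IL-4 in C57, where the groups did not overlap and the log2 difference was 0.22 ± 0.06 (adjusted p = 0.0043). It did not pass in the other 4 strains, where log2 differences lay between -0.03 and 0.07. In TPM, which is per length, Max was above Myc in every library of the strain table, and in NOD, the strain with the most Myc, basal Max was 38.5, 38.7 and 40.5 TPM.

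Among the repressors, Mxd1, known for its rise as cells stop dividing and differentiate, fell after IL-4 in all 5 strains, as 1.34% of all tested genes did. C57 libraries were at 11.8, 14.6 and 11.8 TPM at basal and 8.09, 8.48 and 8.38 TPM after IL-4. NOD libraries were at 27.2, 28.6 and 32.1 TPM and then 20.8, 18.8 and 17.0 TPM, and SPRET libraries at 1.83, 1.83 and 1.91 TPM and then 1.22, 1.09 and 1.24 TPM. Basal and treated libraries did not overlap in any strain. The log2 difference was -0.67 ± 0.09 in PWK, -0.64 ± 0.08 in BALB, -0.61 ± 0.08 in NOD, -0.55 ± 0.08 in C57 and -0.39 ± 0.08 in SPRET, with adjusted p between 1.9e-06 and 0.00056. PWK libraries were at 16.2 and 16.0 TPM and then 10.8, 8.53 and 9.99 TPM. The neutrophil marker sum was lower after IL-4 in C57, BALB, NOD and SPRET, and its ranges overlapped in PWK. The part of cell composition in the fall of Mxd1 was not tested.

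Mxi1, another repressor, went up in some strains and down in another. In C57 it was 13.3, 13.1 and 12.4 TPM at basal and 17.2, 17.0 and 17.4 TPM after IL-4 (log2 difference 0.39 ± 0.07, adjusted p = 0.00016). In SPRET it was 12.2, 12.8 and 11.7 TPM and then 8.76, 8.06 and 9.18 TPM (-0.45 ± 0.07, adjusted p = 1.7e-05). It rose by 0.31 ± 0.07 in NOD (adjusted p = 0.0022) and 0.29 ± 0.08 in PWK (adjusted p = 0.012), both lost under either rescaling of the libraries, and in BALB the groups overlapped (-0.00 ± 0.07, adjusted p = 0.98). Mxd3 fell in NOD, from 23.7, 22.1 and 21.5 TPM to 18.0, 15.3 and 17.2 TPM (-0.40 ± 0.09, adjusted p = 0.0022). In C57 its adjusted p of 0.04997 (0.24 ± 0.09) lay at the threshold, the libraries overlapped, and most alternative settings lost the call. Mxd4, Mnt and Mga did not pass in any strain. Mnt, the broadly expressed repressor of the family, lay between 10.7 and 23.8 TPM in all 29 libraries, and Mga, a large factor that also carries a T-box domain, between 0.97 and 1.92 TPM.

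Of the 40 member and strain pairs at 24 h, 15 passed, 7 of them higher and 8 lower, beside 34.6% of all gene and strain pairs, and 0 changed by more than 2-fold on the log2(TPM + 1) scale, beside 2.62%. That scale understates low genes: in plain TPM the mean of Myc went from 1.88 to 4.58 in C57 and from 6.45 to 13.4 in SPRET, both more than 2-fold. Rescaling moved the split to 5 higher and 10 lower (median ratio) or 6 higher and 9 lower (quantile). By strain, 5 of the 8 members passed in C57 (35.5% of all genes), 4 in NOD (34.3%), 3 in SPRET (44.4%), 2 in PWK (24.7%) and 1 in BALB (34.2%). The count of members that passed was close to the background of all genes.

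**Figure D2:**
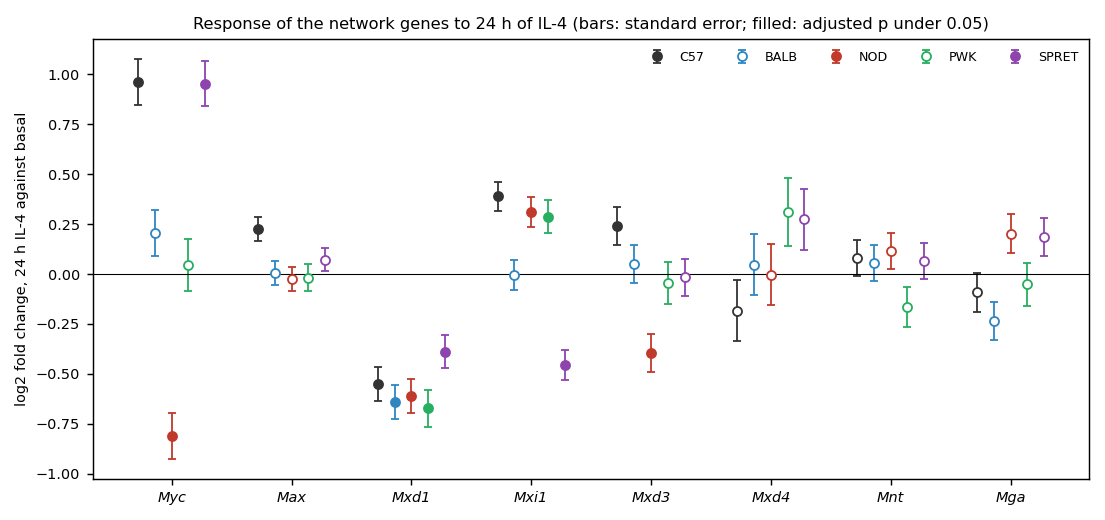
Log2 difference of TPM + 1 between 24 h of IL-4 and basal (vertical axis) for each tested member, by strain, with bars of 1 SE and filled points where the adjusted p was under 0.05. Mxd1 is below 0 with filled points in all 5 strains, and Myc is near +0.95 in C57 and SPRET and at -0.81 in NOD.

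The response of Myc was lower than in C57 in 3 strains when the difference of responses was tested, all against the same C57 libraries. The difference was -1.77 ± 0.16 in NOD (adjusted p = 9.1e-09), -0.92 ± 0.17 in PWK (adjusted p = 0.00038) and -0.75 ± 0.16 in BALB (adjusted p = 0.002). In SPRET it was -0.01 ± 0.16 (adjusted p = 0.98). The response of Mxi1 was lower than in C57 by 0.84 ± 0.10 in SPRET (adjusted p = 7.6e-07), where the gene moved the other way, and differed by -0.39 ± 0.10 in BALB (adjusted p = 0.011). In NOD, Mxd3 differed by -0.64 ± 0.13 (adjusted p = 0.00083) and Max by -0.25 ± 0.08 (adjusted p = 0.025, lost in 6 of 37 alternatives). In all, 7 of 32 differences of response passed, and each was lower than in C57. Over all genes 26.2% of such differences passed and 8.06% passed as lower. Under either rescaling 12 of the members' differences passed in place of 7. The response of Mxd1 did not pass as different from C57 in any strain, with differences between -0.12 and 0.16.

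Members also differed in level between strains before treatment. Basal Myc averaged 1.88 TPM in C57, 3.44 in BALB, 3.53 in PWK, 6.45 in SPRET and 20.2 in NOD. The neighbours BALB and PWK did not differ beyond their spread (log2 difference 0.03, adjusted p = 0.86), and every other neighbour in that order did. NOD stood above C57 by 2.89 ± 0.11 (adjusted p = 4.6e-17) and SPRET above C57 by 1.37 ± 0.11 (adjusted p = 8.6e-11). After 24 h of IL-4, SPRET, at a mean of 13.4 TPM, stood above NOD, at 11.1 TPM, by 0.25 (adjusted p = 0.046). The median gene was itself shifted by 0.311 in that comparison, and no rescaled fit was run for it. The order of SPRET and NOD at 24 h was thus not settled.

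Basal Mxd1 ran in another order, from SPRET (1.86 TPM on average) through BALB (11.6), C57 (12.7) and PWK (16.1) to NOD (29.3). BALB and C57 did not differ beyond their spread (-0.12 ± 0.08, adjusted p = 0.28). SPRET was below C57 by 2.26 ± 0.08 on the log2 scale (adjusted p = 7.2e-18) and NOD above it by 1.15 ± 0.08 (adjusted p = 9e-12). NOD was thus the highest strain for both the activator Myc and the repressor Mxd1, and SPRET was high for Myc and lowest for Mxd1.

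Max was highest in SPRET (48.1, 49.1 and 49.3 TPM), then NOD, with C57, PWK and BALB between 25.9 and 29.6 TPM. The median gene was itself shifted by 0.331 between SPRET and NOD at basal. Over the alternative settings Max against C57 reached 0.88 in NOD and 0.85 in SPRET, so the order of SPRET and NOD was not settled. Mxd3 was highest in SPRET, at 71.5, 76.7 and 71.6 TPM against 35.1, 26.2 and 34.4 TPM in C57 (1.18 ± 0.09, adjusted p = 3.4e-11), and lowest in PWK (17.7 and 17.8 TPM). Mxd4 was lowest in NOD (2.03 to 2.89 TPM) and PWK (2.95 and 2.87 TPM), which did not differ from each other (0.17, adjusted p = 0.38), and stood at 10.7, 12.8 and 10.9 TPM in C57. NOD was below C57 by 1.85 ± 0.15 in Mxd4 (adjusted p = 7.6e-11). Mxi1 was lowest in NOD, at 6.57, 5.91 and 6.30 TPM (-0.94 ± 0.07 against C57, adjusted p = 3.1e-11). Mnt was highest in NOD (19.4 to 22.2 TPM, 0.73 ± 0.09 against C57, adjusted p = 1e-07). Mga did not pass in any strain against C57 at basal.

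Of the 32 basal comparisons with C57, 19 passed, 11 higher and 8 lower, and 7 were over 2-fold. Among all genes 61.7% of such comparisons passed and 13.3% were over 2-fold. In NOD 7 members passed, in PWK 6, in SPRET 5 and in BALB 1. The split was 14 higher and 6 lower under median-ratio scaling and 13 higher and 7 lower under quantile scaling. The median gene was itself shifted against C57 by -0.295 in NOD and -0.159 in PWK at basal, and the 24 h response of the median gene was -0.111 in BALB, 0.123 in NOD and 0.108 in SPRET. These shifts, which rescaling removes, are small beside the basal differences of Myc, Mxd1 and Mxd4 given for NOD against C57. They are also small beside the 24 h changes of Myc in NOD and SPRET and of Mxd1 in BALB.

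The summed TPM of the 6 repressors divided by that of Myc and Mycl gives a description of the balance at the transcript level. At basal it was 36.4 to 54.2 in C57, 21.5 to 24.6 in BALB, 16.6 to 17.8 in PWK, 14.7 to 18.1 in SPRET and 3.79 to 4.11 in NOD. After 24 h it was 18.5 to 20.1 in C57, 7.73 to 7.87 in SPRET and 6 to 6.47 in NOD. It moved down in C57 and SPRET and up in NOD, while BALB (17.6 to 21.9) and PWK (11.5 to 20.4) came close to or overlapped their basal ranges.

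The time course showed a burst of Myc at 1 h that the 24 h comparison does not hold. In C57, Myc went from 7.80 and 7.73 TPM at basal to 67.5 and 69.8 TPM at 1 h, then 23.5 and 21.6 TPM at 6 h and 27.6 and 28.4 TPM at 24 h. In SPRET it went from 11.9 and 11.3 TPM to 114 and 107 TPM, then 33.2 and 31.3 TPM and 37.3 and 31.4 TPM. Both strains were highest at 1 h and stayed above basal in all later libraries. The rise at 1 h was 2.99 ± 0.08 in C57 (adjusted p = 3.8e-10), the 7th highest of 12088 genes, and 3.14 ± 0.08 in SPRET (adjusted p = 7.8e-11), the 16th highest. At 6 h it was 1.42 and 1.40, and at 24 h 1.73 and 1.48, all past the test. Myc came down between 1 and 6 h by 1.56 in C57 (adjusted p = 1.1e-07) and 1.74 in SPRET (adjusted p = 1.4e-08). It then rose again between 6 and 24 h in C57 by 0.30 ± 0.08 (adjusted p = 0.011), while the SPRET difference of 0.08 ± 0.08 did not pass (adjusted p = 0.51).

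At 1 h, when Myc peaked, the repressors Mnt and Mxd1 were below basal. Mnt went from 28.8 and 30.6 TPM at basal to 17.5 and 17.1 TPM at 1 h in C57, and from 27.4 and 29.4 TPM to 16.0 and 15.2 TPM in SPRET. It was back at 28.0 and 24.5 TPM in C57 and 31.3 and 31.1 TPM in SPRET by 6 h, and at 38.2 and 35.1 TPM and 33.3 and 32.6 TPM at 24 h. The fall at 1 h was 0.75 ± 0.07 in C57 (adjusted p = 3.5e-05) and 0.82 ± 0.07 in SPRET (adjusted p = 5.7e-06), and at 24 h Mnt was above basal by 0.29 ± 0.07 in C57 (adjusted p = 0.006) and 0.21 ± 0.07 in SPRET (adjusted p = 0.04, lost in 9 of 24 alternatives). The promoter window of Mnt is one of those printed above with an E-box.

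Mxd1 fell as early and did not return. C57 libraries held 10.4 and 9.19 TPM at basal, 5.95 and 6.70 TPM at 1 h, 6.54 and 6.39 TPM at 6 h and 5.53 and 5.75 TPM at 24 h. SPRET libraries held 5.32 and 5.46 TPM, then 2.55 and 2.33, 4.01 and 3.24, and 3.87 and 2.82 TPM. Each treated library was below each basal library of its strain. The neutrophil marker sum was 66.2–94.2 TPM at basal and 63.8–80.5 TPM at 1 h in C57, and 67.8–73.6 and 63.2–79.4 TPM in SPRET. At 24 h it was 6.43–7.97 TPM in C57 and 71.8–91.7 TPM in SPRET, where it was not lower than at basal. The part of cell composition in the Mxd1 changes was not tested. The difference at 1 h was -0.56 ± 0.13 in C57 (adjusted p = 0.026, lost without any 1 of its 4 libraries) and -0.89 ± 0.13 in SPRET (adjusted p = 0.00041), and the falls at 6 and 24 h passed in both strains. In SPRET, Mxd1 rose in part between 1 and 6 h (0.42 ± 0.13, adjusted p = 0.025).

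Max followed later, with 46.3 and 42.5 TPM at basal and 54.7 and 57.7 TPM at 6 h in C57 (0.33 ± 0.09, adjusted p = 0.017), and 43.7 and 55.0 TPM and then 62.1 and 64.1 TPM in SPRET (0.36 ± 0.09, adjusted p = 0.0075). The basal SPRET libraries lay apart: the difference was 0.20 without basal replicate 1, where the call was lost, and 0.52 without basal replicate 2. The call was also lost without 6 h replicate 2. It stayed above basal at 24 h in C57 (0.28 ± 0.09, adjusted p = 0.021). Mxd4 was lower at 24 h in both strains, from 16.4 and 15.8 TPM to 11.6 and 12.9 TPM in C57 (-0.37 ± 0.11, adjusted p = 0.019) and from 30.3 and 28.98 TPM to 22.5 and 18.1 TPM in SPRET (-0.53 ± 0.11, adjusted p = 0.0021). In C57 at 24 h Mxi1 differed by -0.39 ± 0.10 (adjusted p = 0.0065) and Mxd3 by -0.40 ± 0.09 (adjusted p = 0.0046). Both had the opposite sign in the C57 libraries of the strain table, so the direction of these genes at 24 h was not the same in both experiments. Mga, between 5.92 and 7.92 TPM in all 16 libraries, did not pass at any time against basal.

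**Figure D3:**
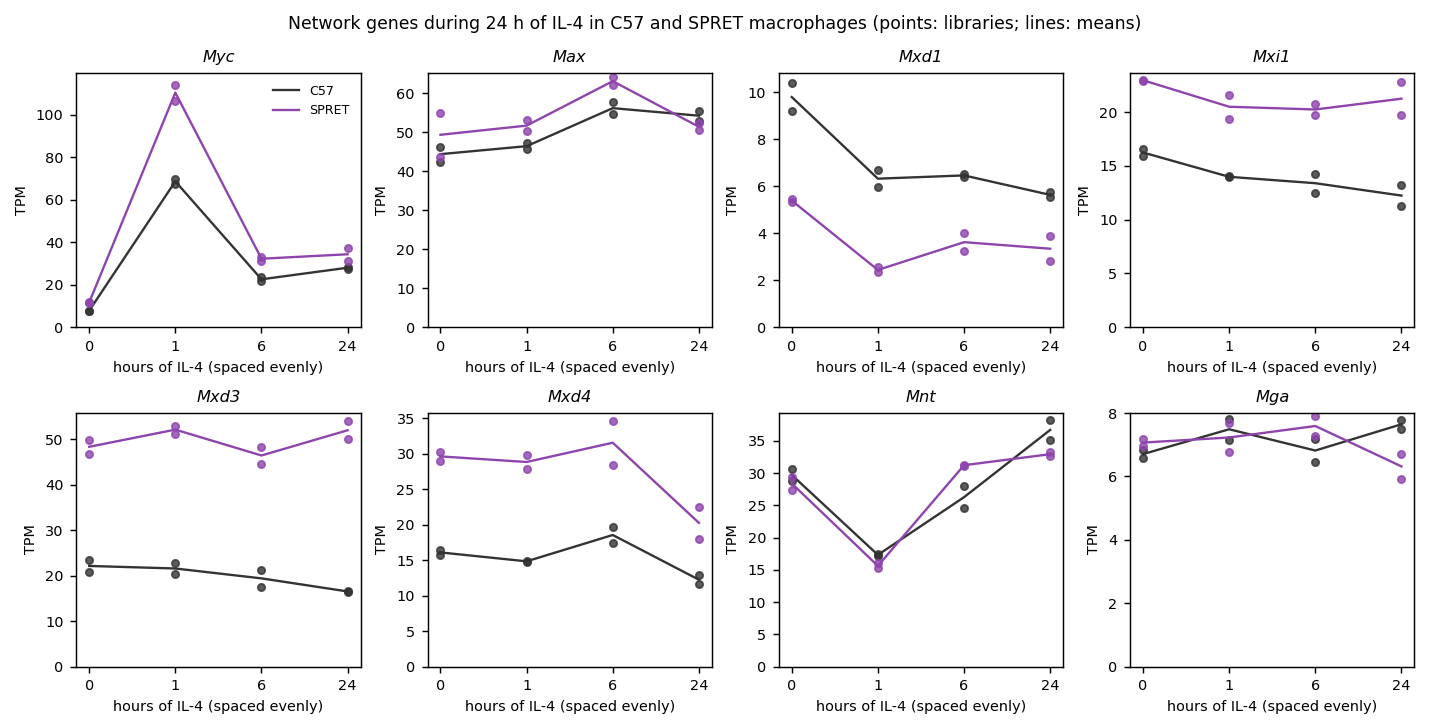
TPM (vertical axes, linear from 0) of the 8 tested members at 0, 1, 6 and 24 h of IL-4 (horizontal axis, evenly spaced by sampling time), with dark points for C57 and purple points for SPRET libraries and lines through the means. Myc peaks at 1 h, at 67.5 to 114 TPM, where Mnt and Mxd1 are below basal, and Mxd3 and Mxd4 are higher in SPRET throughout.

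At 1 h, 3 of 8 members passed in each strain, 1 higher (Myc) and 2 lower (Mnt and Mxd1), while 3.95% of all genes passed in C57 and 8.75% in SPRET. Over all times 13 of 24 comparisons passed in C57 (6 higher and 7 lower, 3 over 2-fold), beside 21.2% and 2.92% of all genes. In SPRET 10 of 24 passed (5 higher and 5 lower, 3 over 2-fold), beside 25.3% and 4.02%. The 3 that were over 2-fold were Myc at each time. The basal libraries enter every time point of a strain.

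Between strains, 22 of 32 levels differed in the time course, 17 higher and 5 lower in SPRET, beside 62.1% of all genes, and the split was 16 and 7 under median-ratio scaling and 16 and 8 under quantile scaling. Mxd3 was higher in SPRET by 1.09 to 1.60 at the 4 times, Mxd4 by 0.68 to 0.91, Mxi1 by 0.47 to 0.75 and Myc by 0.28 to 0.68, and Mxd1 was lower by 0.62 to 1.09. The basal difference of Mxd4, 0.84 ± 0.11 (adjusted p = 2.7e-05), had the opposite sign in the strain table (-0.65 ± 0.15, adjusted p = 0.00055). The responses of the 2 strains differed in 1 of 24 tests, beside 14.1% of all genes. That was Mxd3 at 24 h, with a difference of 0.50 ± 0.13 (adjusted p = 0.013): it was at 16.5 and 16.6 TPM after 23.6 and 20.7 TPM at basal in C57, and at 54.1 and 50.0 TPM after 46.9 and 49.9 TPM in SPRET. The repressor to activator sum fell in range from 12.7–13.1 at basal to 1.18–1.19 at 1 h in C57 and from 11.4–12.7 to 1.09–1.21 in SPRET. At 24 h it was 3.21–3.27 and 3.84–4.11.

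In the knockout experiment Mxd1 differed between genotypes at 6 and 24 h, while Myc did not pass as different at any time. Myc in the Egr2 fl/fl libraries was 6.22 and 6.84 TPM at basal, 38.2 and 39.4 TPM at 1 h, 13.6 and 14.2 TPM at 6 h and 13.5 and 16.1 TPM at 24 h. In the LyzM-Cre Egr2 fl/fl libraries it was 5.71 and 5.00, 37.8 and 36.2, 12.4 and 15.2, and 17.1 and 16.7 TPM. Both genotypes peaked at 1 h, by 2.40 ± 0.10 (adjusted p = 5e-08) and 2.58 ± 0.10 (adjusted p = 1.6e-08). No level of Myc passed as different between genotypes, with log2 differences of -0.24 at basal, -0.07 at 1 h, -0.01 at 6 h and 0.19 at 24 h and adjusted p between 0.18 and 0.96. Its difference of response at 24 h was 0.43 (adjusted p = 0.084).

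Mxd1 fell in the Egr2 fl/fl libraries from 15.4 and 13.9 TPM to 11.2 and 9.82 TPM at 1 h, 8.51 and 8.08 TPM at 6 h and 9.63 and 8.64 TPM at 24 h. In the LyzM-Cre Egr2 fl/fl libraries it went from 14.1 and 14.9 TPM to 10.4 and 10.9, then 10.5 and 11.7, and stood at 16.0 and 16.3 TPM at 24 h. The deleted libraries at 24 h were above every basal library of either genotype. The fall at 1 h passed in both genotypes (-0.45, adjusted p = 0.016, and -0.41, adjusted p = 0.023). It was lost in 3 of 24 alternatives in the controls. In the deleted cells it was lost in 5 of 24, among them without any 1 of its 4 libraries. At 24 h the change from basal was -0.63 in the controls (adjusted p = 0.00021) and 0.15 in the deleted cells (adjusted p = 0.27). The difference of these responses was 0.77 ± 0.13 (adjusted p = 0.0019), and the level was higher in the deleted cells by 0.37 at 6 h (adjusted p = 0.013) and by 0.76 ± 0.09 at 24 h (adjusted p = 4e-05). The difference at 6 h was lost in 3 of 24 alternatives, among them with only the groups compared and without replicate 2 of either genotype at 6 h. The neutrophil marker sum went down in both genotypes, from 61.4–64.5 to 19.1–21 TPM in the controls and from 39.6–44.7 to 10.7–16.1 TPM in the deleted cells at 24 h. Its relation to Mxd1 was not tested.

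**Figure D4:**
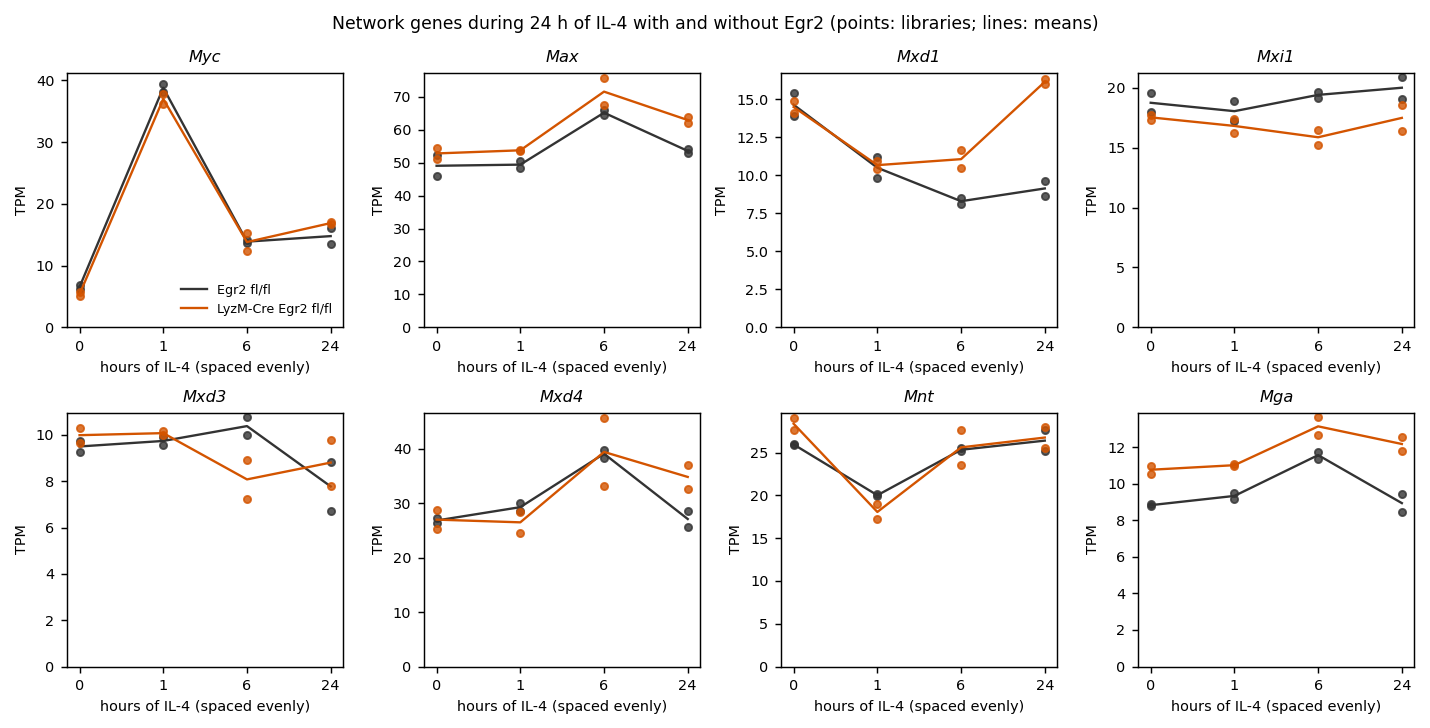
TPM (vertical axes, linear from 0) of the 8 tested members at 0, 1, 6 and 24 h of IL-4 (horizontal axis, evenly spaced by sampling time), with dark points for Egr2 fl/fl and orange points for LyzM-Cre Egr2 fl/fl libraries and lines through the means. The courses of Myc run together, and Mxd1 parts at 24 h, at 8.64 and 9.63 TPM against 16.0 and 16.3 TPM.

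Mnt fell at 1 h again, from 25.9 and 26.0 TPM to 19.9 and 20.1 TPM in the controls (-0.36, adjusted p = 0.033, lost in 9 of 24 alternatives, among them without any 1 of these 4 libraries and with a replicate block, adjusted p up to 0.18) and from 27.7 and 29.1 TPM to 18.9 and 17.2 TPM in the deleted cells (-0.62, adjusted p = 0.00048). Mga was higher in the deleted cells at 24 h, at 11.8 and 12.5 TPM against 8.45 and 9.41 TPM (0.41, adjusted p = 0.0013). Its basal difference of 0.26 (adjusted p = 0.048) was lost under most alternative settings. Max at 24 h was 64.0 and 62.0 TPM against 52.9 and 54.3 TPM (0.23, adjusted p = 0.019), a call lost under both rescalings, where the difference was as low as 0.094. Mxd4 at 24 h was 37.0 and 32.7 TPM against 28.6 and 25.6 TPM (0.35, adjusted p = 0.049), lost under most alternatives. Mxi1 was lower in the deleted cells at 6 h (-0.28, adjusted p = 0.035), lost in 7 of 24 alternatives. Mxd3, at 6.71 to 10.8 TPM in all 16 libraries, did not pass in any comparison of genotypes.

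Against basal, 10 of 24 comparisons passed in the Egr2 fl/fl libraries (6 higher and 4 lower, 2 over 2-fold), beside 19.7% and 2.66% of all genes. In the LyzM-Cre Egr2 fl/fl libraries 10 of 24 passed (7 higher and 3 lower, 3 over 2-fold), beside 20.6% and 3.14%. At 1 h 3 of 8 passed in each genotype, the same 3 members as in the time course, beside 3.24% and 4.13%. Between genotypes 7 of 32 levels passed, beside 20.2%, and 4 of 8 at 24 h, all higher in the deleted cells, beside 25.9% of all genes that were higher at that time, when the median gene was itself shifted by 0.118. Rescaling left 6 of 32, 4 higher and 2 lower. Of 24 differences of response 1 passed, beside 4.58%.

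Known targets of MYC were counted in the same fits. Of 22 genes of the nucleolus and of ribosome making, 19 rose after 24 h in SPRET, 10 in PWK, 8 in NOD and 8 in C57 with 0 falling, and in BALB 1 rose and 2 fell. Of all genes, 31.4% rose in SPRET, 18.6% in PWK, 28.2% in NOD, 15% in C57 and 9.45% in BALB, so 8 of 22 in NOD was near that share. Their median log2 difference was 0.20 in C57, 0.20 in NOD, 0.26 in PWK, 0.48 in SPRET and -0.03 in BALB, beside all-gene medians of -0.04, 0.12, 0.08, 0.11 and -0.11. Under median-ratio scaling 16 rose in SPRET, 11 in C57, 4 in BALB, 4 in NOD (with 1 falling) and 1 in PWK. The PWK count thus depended on the scaling. In the time course 0 of the 22 passed at 1 h in C57 and 1 in SPRET, when Myc was highest, and 17 and 15 rose at 6 h and 18 and 11 at 24 h, when 10.9% and 16.9% of all genes rose at 6 h and 18.2% and 14.8% at 24 h. In C57 at 24 h, Nop58, a box C/D small nucleolar ribonucleoprotein component, rose by 1.34. After 1 h 0 passed in either genotype of the knockout experiment, 13 rose at 6 h and 7 at 24 h in the controls, and 18 and 11 in the deleted cells, beside 16.2% and 12% of all genes in the controls and 19.2% and 16.2% in the deleted cells.

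Of 18 targets in nucleotide, polyamine and general metabolism, 12 rose and 1 fell after 24 h in SPRET, 9 and 0 in PWK, 9 and 0 in C57, 7 and 3 in BALB and 5 and 1 in NOD. The 5 of 18 in NOD were at the 28.2% of all genes that rose there, and the shares of all genes that rose in the other strains are those given above. Tfrc, the transferrin receptor, rose by 2.16 in C57 and 1.45 in BALB. In the C57 time course at 24 h Mthfd2 and Shmt2, enzymes of mitochondrial one-carbon metabolism, rose by 1.85 and 1.64, and Tfrc by 1.49. Tfrc also rose at 24 h by 1.76 in the Egr2 fl/fl controls and 1.97 in the deleted cells.

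Of the 10 cell cycle targets tested, 6 rose and 1 fell in SPRET after 24 h, 4 and 2 in NOD, 4 and 1 in PWK, 3 and 4 in C57 and 2 and 1 in BALB, where 44.4%, 34.3%, 24.7%, 35.5% and 34.2% of all genes passed in either direction. Gadd45a, a growth arrest gene that MYC represses, fell by 1.94 in SPRET, fell by 2.14 in the SPRET time course at 24 h and rose by 1.35 in that of C57. Cdkn1a, the p21 inhibitor that MYC also represses, rose in SPRET at 1 h by 2.06 and at 6 h by 2.10. Of the 8 genes of MYC turnover and its kinases, Pim1 rose in SPRET by 1.39 at 6 h and 1.17 at 24 h. The counts of that list in each direction are not given here, so Pim1 does not stand for the list. Of the 16 partners and cofactors, 6 rose and 1 fell in NOD at 24 h, 5 and 0 in SPRET, 1 and 1 in PWK, 0 and 3 in C57 and 1 and 5 in BALB. The same shares of all genes stand beside these counts. Of the MLX arm, a related dimer network, 2 genes were tested and 0 passed at 24 h in the strains.

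The 16 proliferation genes moved with genotype beside Mxd1. After 24 h 0 rose and 11 fell in the Egr2 fl/fl controls (median -0.38), beside 18.2% of all genes that fell, and 14 rose and 0 fell in the deleted cells (median 0.46), beside 16.2% that rose. The difference of response passed for 13 of the 16, all higher in the deleted cells, beside 8.78% of all genes, with a list median of 0.84 beside 0.095 over all genes. The 3 largest were Birc5 (1.27), Ccnb2 (1.26) and Mki67 (1.09), genes of mitosis and cycling cells. The level at 24 h was higher in the deleted cells for 13 (25.9% of all genes), and before that lower for 6 at basal (5.56%), 7 at 1 h (5.37%) and 3 at 6 h (9.12%). In the C57 time course 0 rose and 11 fell at 24 h (21.1% of all genes fell). At 24 h in the strain experiment 9 rose and 0 fell in SPRET, 5 and 0 in PWK, 4 and 0 in NOD, 1 and 3 in C57 and 1 and 6 in BALB. Of all genes, 44.4%, 24.7%, 34.3%, 35.5% and 34.2% passed in these strains in either direction. The counts in NOD and C57 were thus not above the share of all genes. The part of cell cycling in the Mxd1 result was not tested.

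In F1 cells both alleles share one nucleus, so a difference between alleles can be set beside that between the parent strains, here the basal and 24 h strain values. In the F1 of C57 and SPRET, 8 of 9 members had allele values above 0, and Mycl was listed at 0. Each allele column was scaled on its own, so a ratio is relative to all genes of that allele, whose median log2 ratio lay between -0.063 and 0.006. The table of this cross lists genomic span, introns included, as gene length, so its TPM cannot be compared between genes or with the other tables, while the ratio of both alleles of a gene has the same length on both sides. Myc at basal was 10.3 and 9.42 from the C57 allele and 25.2 and 15.4 from the SPRET allele, in TPM per allele as deposited. After 24 h it was 31.3 and 30.7 against 43.7 and 52.4. The mean log2 ratio of C57 to SPRET was -0.93 (SD 0.39, n = 2) and then -0.61 (SD 0.20), while the parents differed by -1.37 at both in the strain experiment. In the time course SPRET stood above C57 by 0.52 at basal and 0.28 at 24 h. Whether parents or alleles differed more thus depended on the experiment. The SPRET allele was higher in each library, as the SPRET parent was.

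Mxd1 at basal was 11.8 and 11.5 from the C57 allele and 7.67 and 6.86 from the SPRET allele, and 5.11 and 5.16 against 3.59 and 4.02 at 24 h. The C57 allele was higher in each, with a mean log2 ratio of 0.62 (SD 0.08) at basal and 0.36 at 24 h. The parents' difference in the strain experiment was larger, at 2.26 and 2.09. In the time course the log2 difference SPRET minus C57 was -0.75 at basal and -0.62 at 24 h. Mxi1 alleles were close to even (-0.05 at basal and -0.00 at 24 h), also at 24 h where the parents differed by 0.92 in the strain experiment. In the time course the parents differed the other way at 24 h, with SPRET above C57 by 0.75 (adjusted p = 1.9e-05). Max was higher from the SPRET allele (-0.64 and -0.46), like its parents in the strain experiment (-0.80 and -0.65). Mxd3 spread widely between libraries (0.38, SD 0.77, at basal and -1.15, SD 0.95, at 24 h): the basal libraries disagreed in direction, and at 24 h the SPRET allele was higher in both. Mnt (-0.21 and -0.29) and Mga (-0.32 and -0.44) leaned to the SPRET allele.

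In the F1 of C57 and NOD only Mxd1, Mnt and Mga had values above 0. Mxd1 at basal was 5.21 on the C57 allele against 0 on the NOD allele in replicate 1, and 1.73 against 5.41 in replicate 2. That spread (SD 2.74 of a mean log2 ratio of 0.70) does not allow a direction beside the parents' -1.15, and Myc could not be compared. Of 22 member and condition pairs over both crosses, the C57 allele was higher in both libraries in 3 and the other allele in 12. The share of all genes with such agreement was not counted, and their median log2 ratio lay between -0.063 and 0.006. The split therefore cannot be read as a trait of the members. With 2 libraries a group no test was run.

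**Figure D5:**
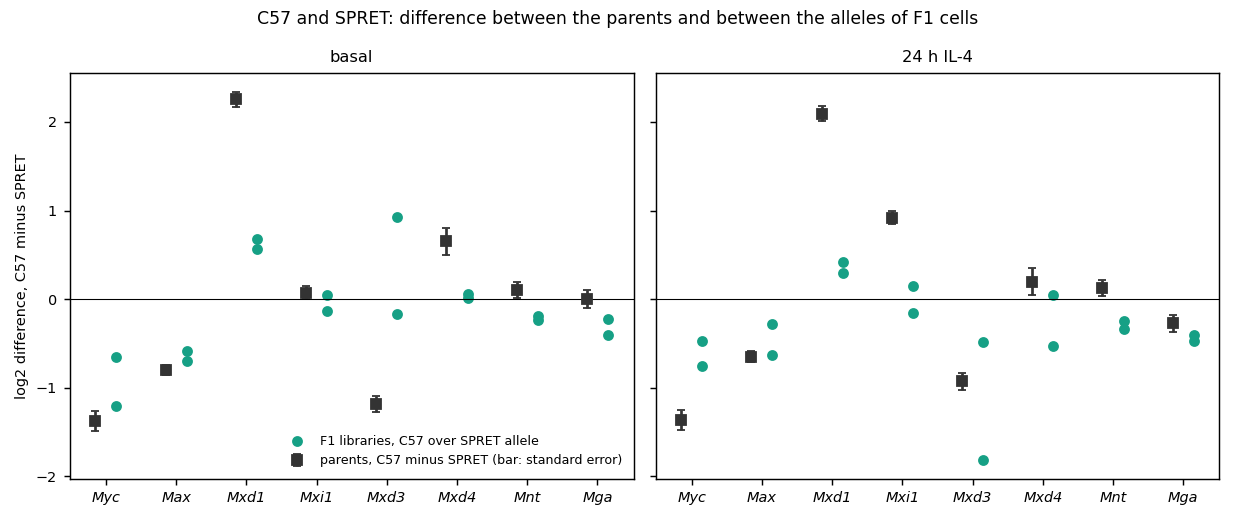
Log2 difference C57 minus SPRET (vertical axis) for 8 members at basal and 24 h of IL-4, with squares and bars of 1 SE for the parents in the strain experiment and points for the allele ratio in each F1 library. Myc, Max and Mxd1 alleles lie on the side of their parents, with Mxd1 at 0.62 on average at basal against 2.26 in the parents.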

How the data were processed

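Poly(A) RNA libraries from 69 samples entered the series, and 61 in 3 tables were tested. The authors aligned reads with STAR to genomes carrying each strain's variants, used MMARGE to bring positions onto mm10, and summed exon reads in HOMER; the deposited values are TPM per gene, and the F1 tables give TPM per allele. Reads of alleles without variants do not enter allele values, and reads from strains distant from mm10 may align less well. Another 66 deposited columns, log2 fold changes and p-values of the authors' own comparisons, were not used, and neither was a table of human cells.

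Groups came from the sample labels. TPM were not counts, so limma 3.58.1 (R 4.3.3) was fitted per table to log2(TPM + 1) with 1 mean per group and an intensity trend, over genes reaching 1 TPM in at least 2 libraries, with Benjamini-Hochberg adjustment per comparison over all genes tested. Fold changes on this scale understate the change of low genes. Differences of response were interaction contrasts. The fit was tested on simulated data. F1 ratios were log2 of allele TPM with the same pseudocount of 1, with no test. All 9 members were named, with Egr2 as the check of the knockout, list genes only among the 3 largest changes over 2-fold of their list, and the 3 genes most correlated with each member, of which 1 is not reported here. The members, lists and tests were chosen with earlier results of these data known. The libraries were biological replicates per the study's methods. Labels do not say that equal replicate numbers share an animal. In units of 1000000 mapped tags, depth was 7.02 to 22.5 in the strain table, 5.7 to 24 in the time course and 4.69 to 32.9 in the knockout table, and TPM keep no counts from which an interval could be made. Alternatives were a median-ratio and a quantile scaling, pseudocounts of 0.1 and 5, no filter and a fit of only the groups compared. Further ones were a robust prior for the spread in limma, a replicate block, and each library left out. Promoter sequences came from RefSeq on GRCm38.p6. Figures were drawn with matplotlib 3.10.9.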

Additional observations from a re-analysis of the deposited data

Results flagged for a closer look

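In all, 9 differences of response passed the test of the difference itself. Against C57, the 24 h response of Myc differed by -0.75 in BALB (adjusted p = 0.002), -1.77 in NOD (adjusted p = 9.1e-09) and -0.92 in PWK (adjusted p = 0.00038) on the log2 scale. The response of Mxi1 differed by -0.39 in BALB (adjusted p = 0.011) and -0.84 in SPRET (adjusted p = 7.6e-07). In NOD that of Max differed by -0.25 (adjusted p = 0.025, lost with only the groups compared and without any of 5 C57 or NOD libraries, adjusted p up to 0.12) and that of Mxd3 by -0.64 (adjusted p = 0.00083). In the time course the 24 h response of Mxd3 was higher in SPRET than in C57 by 0.50 (adjusted p = 0.013), and without C57 basal replicate 1 or SPRET 24 h IL-4 replicate 1 it no longer passed. In the knockout table the 24 h response of Mxd1 was higher in LyzM-Cre Egr2 fl/fl than in Egr2 fl/fl by 0.77 (adjusted p = 0.0019), with both 24 h libraries of the deleted cells above both 24 h controls. The 7 strain differences share the C57 libraries and are not independent.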

How the results depend on the processing

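Of 115 member values that passed, 74 passed under every alternative, 41 were lost under at least 1 and 0 reversed. Differences of response against C57 went from 7 to 12 under median-ratio scaling and to 12 under quantile scaling. With only the groups compared in the fit, SPRET time course responses went from 10 to 5, Egr2 fl/fl responses from 10 to 6, LyzM-Cre Egr2 fl/fl responses from 10 to 6 and genotype differences from 7 to 3; without a filter the last was 4. Max in PWK against C57 at basal, -0.00 and not past the test, was 0.20 under median-ratio scaling. Leaving out each library gave 13–17 calls at 24 h in the strains, 19–20 at basal, 6–12 for strain differences of response (12 without C57 24 h IL-4 replicate 1), 8–15 in C57 time course (8 without C57 basal replicate 1) and 7–10 in SPRET time course. It gave 21–25 for SPRET levels against C57, an alternative set chosen after seeing the data, 0–2 for time course differences of response (0 without C57 basal replicate 1, 2 without C57 6 h replicate 1 or SPRET basal replicate 1), 8–11 in Egr2 fl/fl, 6–11 in LyzM-Cre Egr2 fl/fl (6 without its basal replicate 2), 3–7 between genotypes and 1–2 for genotype differences of response (2 without LyzM-Cre Egr2 fl/fl 6 h replicate 1 or 2). The genotype count was 3 or 4 without either Egr2 fl/fl replicate at 6 or 24 h, either LyzM-Cre Egr2 fl/fl basal replicate or its 24 h replicate 1. Where 1 library was left in a group it was assumed to vary like the other groups. Myc at 24 h in C57, NOD and SPRET, Mxd1 at 24 h in C57, BALB, NOD and PWK, and Mxd1 at 24 h between genotypes passed in each alternative; Mxd1 in SPRET was lost at a pseudocount of 5 (adjusted p = 0.061), and Mxd3 in NOD at basal under median-ratio scaling (adjusted p = 0.47). Deviations of same-numbered libraries from their group means had a mean correlation of 0.0134, 0.0305 and -0.0046 in the 3 tables. These means run over all pairs of groups, also of different strains or genotypes. Pairing of basal and treated libraries within a strain or genotype was not tested. A replicate block, with a shared effect per replicate number over all groups, gave 14 calls at 24 h, 19 at basal and 7 differences of response in the strains. It gave 13, 10, 1 and 22 in the time course, and 9, 10, 5 and 1 in the knockout table. Causes of these shifts were not tested. Low genes such as Mycl were not resolved at this depth.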

Other observations

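Levels of one member were not comparable between tables. Myc in C57 at basal was 4.12 times as high in the time course as in the strain table, Mga 5.09 times and Mnt 2.44 times, while Mxd1 was 0.771 times and Mxd3 0.694 times as high. Over all genes the median ratio of the strain table to the time course fell with listed length, from 1.47 for genes under 1000 bases to 0.325 for those of 8000 bases or more. For this reason levels were tested only within a table.

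At several points members passed in the strain experiment and in the time course with opposite signs. These were Mxi1 at 24 h in C57 (0.39 and -0.39), Mxd3 at 24 h in C57 (0.24 and -0.40), and Mxd4 in SPRET against C57 at basal (-0.65 and 0.84). After 24 h Mxi1 was higher in C57 than in SPRET by 0.92 in the strains (adjusted p = 4.1e-11). In the time course it was higher in SPRET by 0.75 (adjusted p = 1.9e-05). Mga at 24 h differed by -0.28 as C57 minus SPRET in the strains (adjusted p = 0.013). In the time course it differed by -0.24 as SPRET minus C57 (adjusted p = 0.039, lost in 6 of 24 alternatives).

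The genes with the most similar pattern over the 29 strain libraries, which share strains, depth and treatment, were described by Pearson's r of log2(TPM + 1). For Myc these were Gabarap (0.922), Pvt1 (0.921), the noncoding gene beside Myc, and Cxcl1 (0.899). For Mxd1 they were St3gal1 (0.986), Zfas1 (0.983) and Micall2 (0.979). For Max they were Rhbdd2 (0.954), Anapc16 (0.941) and Rab11fip1 (0.940), and for Mxi1 Itgam (0.951), Vps13d (0.934) and Bphl (0.933). For Mxd3 they were Atp5o (0.967), Mrps21 (0.966) and Mtch1 (0.965), and for Mxd4 Gnpda1 (0.952) and Tmem173 (0.945). For Mnt they were Dyrk1a (0.944), Gprc5b (0.936) and Syt7 (0.928), and for Mga Crkl (0.851), Pafah1b1 (0.792) and Kpna1 (0.792).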
